A study of Mus musculus with 2 samples.

Results

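The regulators of the ATF4 branch of the integrated stress response were examined in splenic CD8 T cells stimulated through the T cell receptor. The group has 10 members, taken by name from the 24013 gene symbols of the deposited table: the kinase gene Eif2ak4, the transcription factor genes Atf4, Atf3, Atf5, Ddit3, Cebpb and Cebpg, and the inhibitor genes Trib3, Sesn2 and Ddit4. All 10 were found. A gene with more than 1 transcript row was represented by its most abundant row, judged on the average of the libraries. RNA sequencing gave 1 library of DGKζ-/- cells, from C57BL/6 mice aged 6 weeks, and 1 library of wild-type cells, from C57BL/6 mice aged 7 weeks. In both, naive CD8+ T cells were purified from spleen and kept for 24 hours on plates coated with antibodies against CD3 and CD28. The enzyme missing in the first, diacylglycerol kinase ζ, removes the second messenger diacylglycerol downstream of the T cell receptor. The labels give neither the number of animals behind a library nor their sex. They do not say how the deletion was made.

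Cells lower general protein synthesis under stress by phosphorylating the initiation factor eIF2. Its kinases each sense a different condition, and GCN2, the product of Eif2ak4, senses a shortage of amino acids. Phosphorylated eIF2 favours translation of the Atf4 mRNA, and ATF4 pairs with C/EBP proteins and activates genes of amino acid synthesis and import as well as its own partners and brakes. In activated T cells, whose growth needs large amounts of amino acids, this branch is known to serve amino acid supply. Control of ATF4 itself is largely translational, which RNA levels do not show.

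ATF4 and a C/EBP partner bind a composite element, the C/EBP-ATF response element, searched here on both strands as TGATGNAAN, beside 1 other motif, whose letters do not contain it. In RefSeq windows of 300 bases (GRCm38.p6, 250 bases before to 50 after the start of the gene), 2 of the 10 members held it, Atf3 and Trib3. Sesn2, Ddit4, Atf4 and Cebpb, which were called higher below as these 2 were, did not hold it. Of all 27025 genes with such a window, 4.50% held it, and of all 32851 windows 3.95%. Of the 34 ATF4 target genes with a window, 15 held it. The element was defined in other studies on genes of this kind, so that share is a description. Some of these 15 targets were not called higher below, and a link between the element and the fold was not tested. The palindrome TGACGTCA, bound by CREB and ATF proteins, was in 0 of the 10 members' windows and in 1.79% of all windows. The matches of both members are shown beside those of 4 target genes that were higher in the deficient library, each read in the direction of the element with 10 bases on either side, the element in capitals:
Atf3: gcggacttggTGATGCAAGtgcgagaagg
Trib3: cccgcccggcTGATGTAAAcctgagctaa
Asns: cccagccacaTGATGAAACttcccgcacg
Chac1: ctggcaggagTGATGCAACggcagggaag
Slc7a11: ctcatgtggcTGATGCAAAcctggagaat
Pck2: tgtaagatacTGATGTAACtttgaaggct
The Atf3 match begins 111 bases before the start of the gene and the Trib3 match 13 bases after it. Both lie on the strand opposite to the gene. The 250 bases before the start are shown for these 2 genes and for Atf4, which heads the branch and had no match, with the Atf3 match in capitals as it reads on the strand of the gene. Their positions are chr1:191183334-191183583 for Atf3 (minus strand), chr2:152344061-152344310 for Trib3 (minus strand) and chr15:80254934-80255183 for Atf4 (plus strand):
Atf3: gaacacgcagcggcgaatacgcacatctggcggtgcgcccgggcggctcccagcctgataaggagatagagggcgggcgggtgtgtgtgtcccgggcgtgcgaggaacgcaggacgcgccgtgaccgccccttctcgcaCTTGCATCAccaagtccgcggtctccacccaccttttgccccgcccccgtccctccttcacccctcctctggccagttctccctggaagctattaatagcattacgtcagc
Trib3: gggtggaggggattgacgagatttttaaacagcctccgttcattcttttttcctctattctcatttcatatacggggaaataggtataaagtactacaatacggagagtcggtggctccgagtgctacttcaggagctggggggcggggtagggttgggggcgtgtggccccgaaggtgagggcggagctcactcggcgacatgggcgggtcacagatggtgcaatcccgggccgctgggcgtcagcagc
Atf4: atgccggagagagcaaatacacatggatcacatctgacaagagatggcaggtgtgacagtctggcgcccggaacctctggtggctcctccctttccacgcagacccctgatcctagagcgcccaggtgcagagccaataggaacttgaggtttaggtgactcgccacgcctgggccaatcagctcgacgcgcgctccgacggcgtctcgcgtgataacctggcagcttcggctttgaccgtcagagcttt
A match says only that these letters occur there, and no binding was measured.

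The libraries differed in more than genotype. The deficient library held 13464169 reads over all genes and the wild-type library 37211969, a ratio of 2.76. The targeted gene Dgkz stood at 2591 normalized counts in the deficient library against 6714 in the wild-type library, a 2.59-fold lower level (95% counting interval 2.46 to 2.74). Xist was 658-fold higher in the deficient library, and the Y-linked genes Ddx3y, Kdm5d, Uty and Eif2s3y had 0 reads there, against 921 to 2192 normalized counts in the wild-type library. Sex, age, library and genotype therefore cannot be told apart in any value below. The 8 CD8 T cell markers examined were present in both libraries, from 1744 normalized counts up in the deficient and from 2439 up in the wild-type one. Of these markers 5 were lower and 3 higher in the deficient library and 0 were called, with a summed level of 47138 against 52718 normalized counts. Cd3g was 1.83-fold, Cd8a 1.55-fold and Cd3e 1.40-fold lower in the deficient library. The 9 B cell markers were all lower in the deficient library, with a summed level of 2283 against 3110 normalized counts, 0 of them at 0 and 2 of them called lower. The summed levels in the deficient library, against those in the wild-type library, were 422 against 490 for 3 CD4 T cell markers, 773 against 1018 for 6 NK cell markers, 317 against 275 for 8 myeloid markers and 60.0 against 77.6 for 5 erythroid markers. Of the myeloid markers only Mpeg1, at 185 against 127, and Fcgr3, at 49.7 against 4.66 on 29 and 8 reads, were higher in the deficient library. The other myeloid markers were lower there. Among the CD4 T cell and NK cell markers, Cd4 was called lower, at 53.2 against 171 normalized counts, while Foxp3 stood at 321 against 262, and Klrd1 was called lower, at 134 against 395. Klrk1, at 633 against 587, and Klrd1 made up most of the NK cell sum in both libraries. Whether their RNA came from NK cells was not tested. In the deficient library Ncr1, Klrb1c, Klra8, Cd14 and Hbb-b2 were at 0, and the deeper wild-type library held only 1 to 9 reads of each. The part of other cells in the members' values was not tested, and fewer cells of a type and less RNA per cell cannot be told apart in bulk RNA.

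All 10 regulators were higher in the deficient library than in the wild-type library, and 6 of them by at least 2-fold. Trib3, Atf3, Sesn2, Ddit4, Atf4 and Cebpb made up the 6, while Atf5, Ddit3, Eif2ak4 and Cebpg were between 1.18- and 1.41-fold higher. Values are normalized counts, which are reads divided by the authors' size factor of the library, and the log2 ratio is that of the deficient to the wild-type value after adding 10 to each, which understates the change of low genes. A gene was called higher at a log2 ratio of 1 and lower at -1, among the 10518 genes with a mean of at least 50, a minimum all 10 members passed. With 1 library per genotype there is no replicate check and no test. Of all compared genes 1.3% were called higher (137 genes) and 1.29% lower (136 genes), together 2.6%, and at equal library totals 115 were called higher and 179 lower. Of the members 6 were called higher and 0 lower. Their median log2 ratio was 1.26, against 0.055 over all compared genes, of which 58.2% had a log2 ratio above 0. The members were chosen with earlier results of these data known, so their count is a description.

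**Figure D1:**
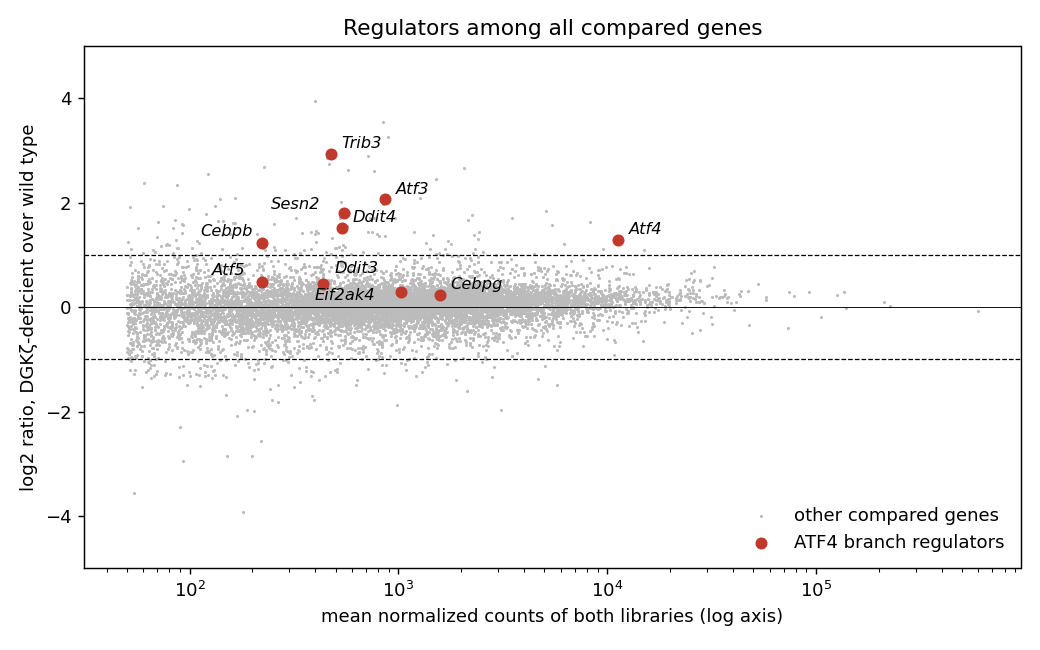
Log2 ratio of the DGKζ-deficient to the wild-type library (vertical axis) against the mean normalized counts of both libraries (log axis), for the compared genes (grey) and the 10 regulators (red). Dashed lines mark the 2-fold limits, and 6 genes with log2 ratios past the axis, Xist and the Y-linked genes among them, are not drawn. Trib3, Atf3, Sesn2, Ddit4, Atf4 and Cebpb lie above the upper line and the other regulators between 0.24 and 0.48.

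Eif2ak4, which encodes the amino acid sensor GCN2, stood at 1130 normalized counts in the deficient library and 928 in the wild-type library. It was 1.22-fold higher (95% counting interval 1.11 to 1.33) with a log2 ratio of 0.28, and 82.7% of all compared genes had a lower log2 ratio. The intervals here and below are exact (Clopper-Pearson) and cover counting error only, since the reads carry no molecular identifiers and are not independent, and animals may vary by more. Atf4, the transcription factor that gives the branch its name, was read at 16042 normalized counts in the deficient library and 6564 in the wild-type library. That was 2.44-fold higher (2.38 to 2.51), the narrowest interval of the group, on 9354 and 11257 reads. Atf4 made up 67.2% of the summed normalized counts of the 10 members in the deficient library and 62.2% in the wild-type library. The other 9 members together were 1.96-fold higher, at 7824 against 3994 normalized counts.

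Among the other transcription factors, all of the basic leucine zipper (bZIP) family, 2 of 5 were called higher. Atf3, a stress-induced factor best known as a repressor, was read at 1405 normalized counts in the deficient library and 329 in the wild-type library. It was 4.27-fold higher (3.83 to 4.76). Cebpb, a C/EBP partner of ATF4, was read at 316 and 129 normalized counts in the deficient and wild-type libraries. Its fold of 2.44 had an interval of 1.99 to 2.98, so its call as 2-fold rests on 184 and 222 reads and did not hold where the whole interval had to pass 2. Cebpg, another dimer partner of ATF4, stood at 1706 normalized counts in the deficient library and 1444 in the wild-type library. It was the member with the lowest fold, 1.18 (1.10 to 1.27). Ddit3, encoding the death-associated factor CHOP, was read at 506 normalized counts in the deficient library and 369 in the wild-type library, 1.37-fold higher (1.19 to 1.58). Atf5, an ATF4 relative tied to mitochondrial stress, was read at 261 and 184 normalized counts in the deficient and wild-type libraries, 1.41-fold higher (1.16 to 1.72). These Atf5 values come from a row annotated as non-coding. The coding row of Atf5 had 158 and 117 normalized counts, on 92 and 201 reads, and a log2 ratio of 0.40. The factors thus spread from 1.18- to 4.27-fold, and Cebpg, Ddit3 and Atf5 lay apart from Atf4 by their counting intervals. Exons of Ddit3 overlap those of Mars on the opposite strand in the GENCODE annotation, those of Atf5 overlap Nup62 and Il4i1, and those of Cebpb overlap Tmem189. The library kit does not mark strand, so reads in these overlaps cannot be assigned. Mars was read at 8253 normalized counts in the deficient library and 6788 in the wild-type library, 1.22-fold higher. In the deficient and wild-type libraries Nup62 was at 4382 and 3760, 1.17-fold higher, and Tmem189 at 1295 and 1194, 1.08-fold higher. Il4i1 was lower in the deficient library, at 22.3 against 37.9.

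**Figure D2:**
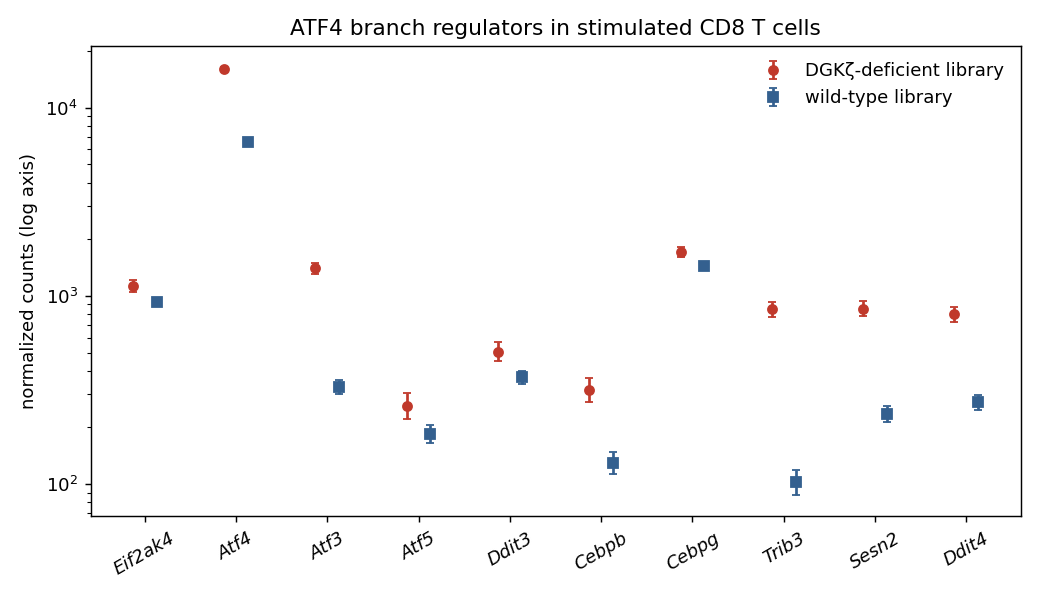
Normalized counts (log axis) of the 10 regulators in the DGKζ-deficient (red circles) and wild-type (blue squares) library, 1 library each, in the order sensor, Atf4, other transcription factors and inhibitors. Bars are exact Poisson 95% intervals of the read count, and every red point lies above its blue one, by 8.30-fold for Trib3 and by 1.18-fold for Cebpg.

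The inhibitor genes had some of the highest folds, and all 3 were called higher. Trib3, a pseudokinase that binds ATF4 and CHOP and acts as feedback on the branch, was read at 847 normalized counts in the deficient library and 102 in the wild-type library. It was 8.30-fold higher (6.97 to 9.92), rank 6 of the 10518 compared genes by log2 ratio. Sesn2, a leucine-binding inhibitor of mTORC1 signalling, was read at 856 normalized counts in the deficient library and 237 in the wild-type library, 3.61-fold higher (3.16 to 4.13). Ddit4, which encodes REDD1, an inhibitor that acts on mTORC1 through the TSC complex, was read at 797 and 272 normalized counts in the deficient and wild-type libraries, 2.93-fold higher (2.58 to 3.34). Sesn2 and Ddit4 are also induced by p53 and by low oxygen, as known from other work. Close relatives of these genes had log2 ratios below 0. Sesn1 had a log2 ratio of -0.28 and Sesn3 one of -0.23, and the Tribbles genes Trib1 and Trib2 had -0.31 and -0.21.

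Ordered by fold, Trib3 stood alone, with an interval that did not overlap that of Atf3. Atf3 and Sesn2 overlapped, as did Sesn2 and Ddit4. Atf4 and Cebpb, at 2.44 each, overlapped with each other and lay apart from Atf5 below. Atf4 also lay apart from Ddit4 above, whereas the wider interval of Cebpb overlapped that of Ddit4. The 4 lowest, Atf5, Ddit3, Eif2ak4 and Cebpg, each overlapped the next. By log2 ratio, 8 of the 10 members exceeded 90% of all compared genes, and Eif2ak4 and Cebpg did not. Of the members 5 had a single transcript row, and in the other 5 the rows differed in log2 ratio by at most 0.079.

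**Figure D3:**
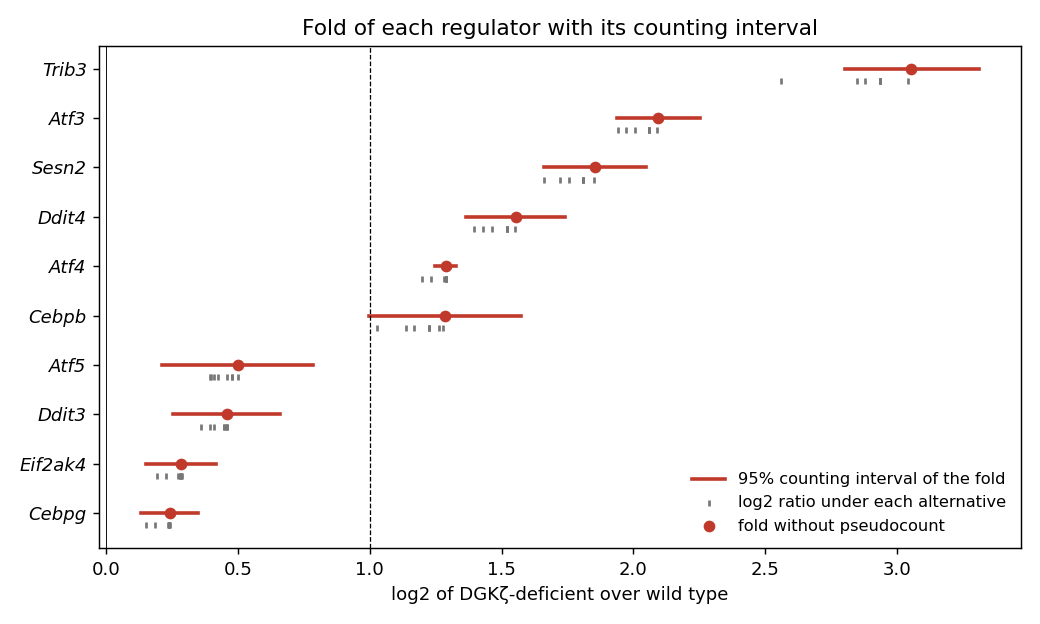
Log2 of the fold of each regulator, DGKζ-deficient over wild type, without a pseudocount (red points) with its 95% counting interval (red lines), and the log2 ratio under each processing alternative (grey marks). The dashed line marks 2-fold. The intervals of Trib3, Atf3, Sesn2, Ddit4 and Atf4 lie wholly above it, that of Cebpb reaches down to 1.99-fold, and the other 4 lie below it and above 0.

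The order of the members by level also differed between the libraries. Levels between genes are compared per kilobase of transcript, with lengths from GENCODE. Atf4 had 9300 normalized counts per kilobase in the deficient library and 3805 in the wild-type library, the highest of the group in both. In the deficient library Atf3 was second at 708 per kilobase, followed by Ddit3 at 568, Ddit4 at 454 and Trib3 at 418, the last 2 with overlapping intervals. In the wild-type library Ddit3 was second at 414 per kilobase, then Cebpg at 307, followed by Eif2ak4 at 178, Atf3 at 166 and Ddit4 at 155, of which neighbours overlapped. Trib3 was the lowest member in the wild-type library, at 50.4 per kilobase, and Atf5 the lowest in the deficient library, at 144. Relative to Atf4, Atf3 reached 7.61% of its level per kilobase in the deficient library and 4.36% in the wild-type library. Ddit3 reached 6.11% of the Atf4 level in the deficient library and 10.9% in the wild-type library, so its share was the smaller in the deficient library. Trib3 reached 4.50% and 1.32% of it in the deficient and wild-type libraries.

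**Figure D4:**
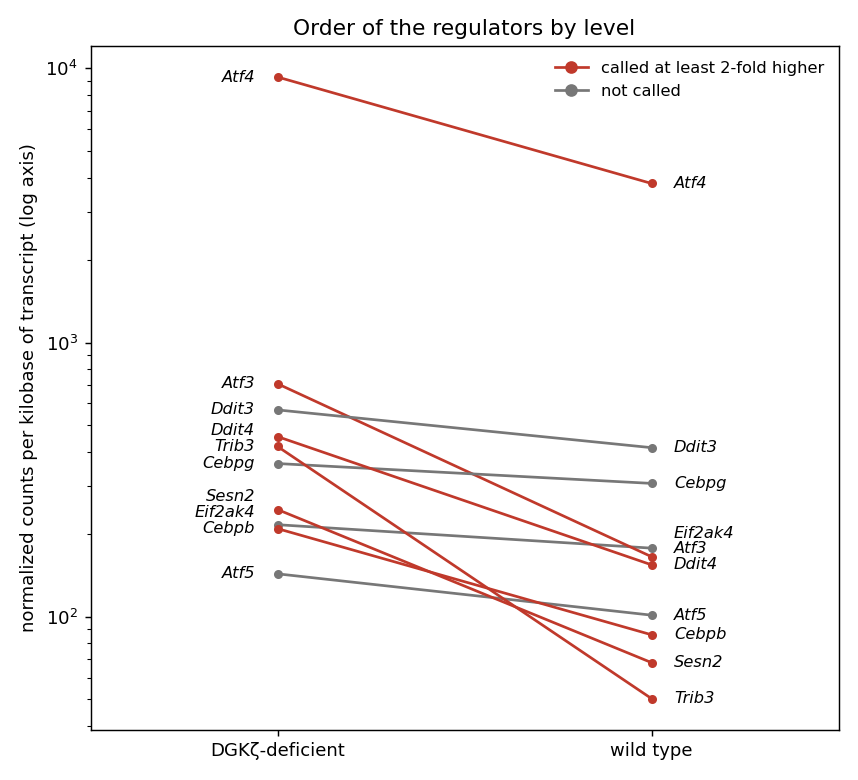
Normalized counts per kilobase of transcript (log axis) of each regulator in the DGKζ-deficient (left) and wild-type (right) library, with lines joining the values of a gene. Genes called at least 2-fold higher are red and the others grey, and some gene names are moved apart to be legible. Trib3 is number 5 of 10 on the left and last on the right.

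The genes around the regulators were counted by lists taken from common knowledge of the pathway. The counts stand beside the 1.3% of all compared genes called higher and the 1.29% called lower. Of 43 known targets of ATF4 listed, 38 had a mean of at least 50, of which 14 were called higher, 0 lower and 24 were not called, with a median log2 ratio of 0.73. The 6 largest were those of Cth (3.94), Slc7a3 (2.85), Chac1 (2.74), Asns (2.66), Gpt2 (2.61) and Slc7a11 (2.55). They encode enzymes of cysteine, glutathione, asparagine and alanine metabolism and importers of cationic amino acids and cystine. Slc1a5, a glutamine transporter, was the single compared target below 0, at -0.40.

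Upstream of ATF4 the median log2 ratio lay closer to that of all compared genes than the median of the members or targets did. It was still above the upper quartile of all compared genes, 0.216. The list covers eIF2, its kinases with Eif2ak4 among them, its exchange factor eIF2B, its phosphatase subunits and other genes linked to eIF2 phosphorylation. Of its 19 compared genes 1 was called higher, 0 lower and 18 were not called, with a median log2 ratio of 0.24. Above 0 were 15 of the 19. The called gene was Ppp1r15a, which encodes GADD34, the stress-induced subunit that directs phosphatase to eIF2, and it is also counted among the ATF4 targets. It was read at 914 normalized counts in the deficient library and 436 in the wild-type library, 2.10-fold higher (1.87 to 2.35). The constitutive counterpart Ppp1r15b was at 4697 and 5265 normalized counts in the deficient and wild-type libraries, a log2 ratio of -0.16. Beside Eif2ak4, the kinase genes had log2 ratios of 0.46 for Eif2ak2 (PKR, sensor of double-stranded RNA), 0.24 for Eif2ak3 (PERK, sensor of ER stress) and 0.12 for Eif2ak1 (HRI, sensor of low heme). None of the 4 kinase genes was called.

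For the neighbouring stress programs the counts are set beside the 1.3% of all compared genes called higher and the 1.29% called lower, a share at which lists of this size hold few calls. Of 22 compared genes of ER chaperones and of the IRE1 and ATF6 branches of the unfolded protein response, 0 were called in either direction. Their median log2 ratio was 0.13. Of the 22, 15 had log2 ratios above 0 and 7 below, and Syvn1 lay furthest from 0, at -0.93. Herpud1, an ER stress gene listed only among the ATF4 targets, was called higher, 2.16-fold (2.03 to 2.29). The count of 0 thus depends on how genes were assigned to lists. Hspa5, the main ER chaperone (BiP), was read at 30707 normalized counts in the deficient library and 24389 in the wild-type library, a log2 ratio of 0.33, and Xbp1, the IRE1 effector, at 2233 and 2265, a log2 ratio of -0.02. Of 13 compared mitochondrial chaperones and proteases, 0 were called, with a median of 0.222, beside an upper quartile of 0.216 over all compared genes. Of 13 compared genes of other mTORC1 brakes and Tribbles genes, 1 was called higher and 0 lower, with a median of -0.01. The called gene was Eif4ebp1, a translation repressor and ATF4 target, at 3284 normalized counts in the deficient library and 1022 in the wild-type library, 3.21-fold higher (3.01 to 3.43). Of 29 other bZIP factors compared, 2 were called higher and 0 lower, with a median of -0.02. These were Batf3 (7.40-fold, 5.80 to 9.51) and Nfil3 (2.21-fold, 1.84 to 2.66). None of these lists was tested against other genes.

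**Figure D5:**
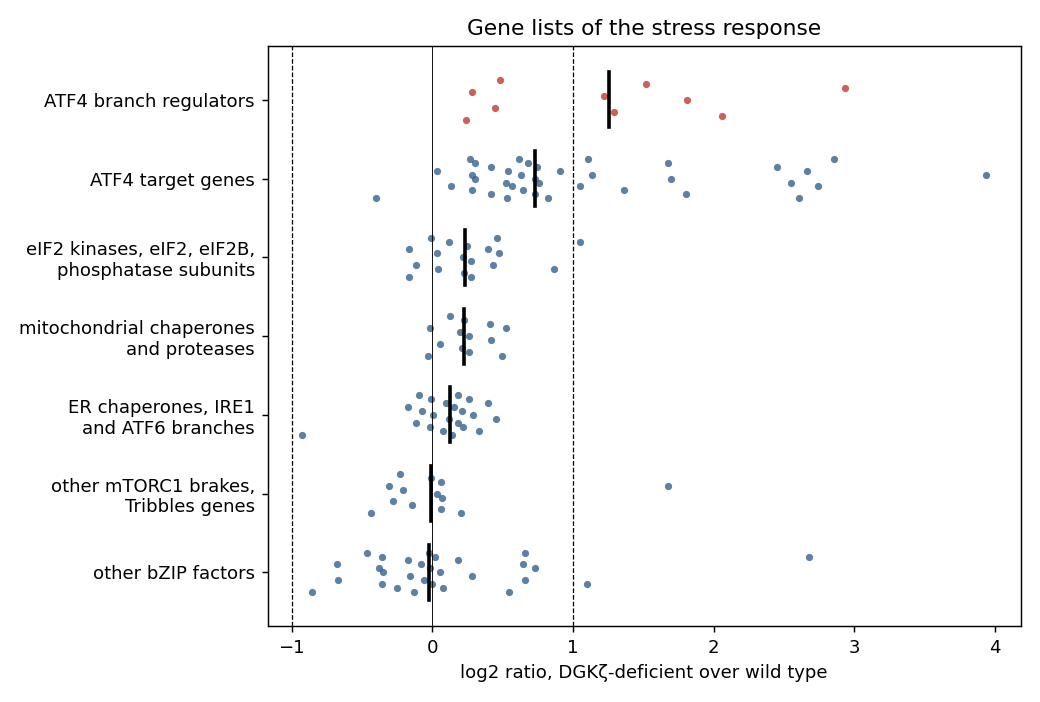
Log2 ratio, DGKζ-deficient over wild type, of each compared gene in 7 lists, with the 10 regulators (red) on top and left out of the other lists (blue). Black bars are medians and dashed lines the 2-fold limits. The list labelled with the eIF2 kinases also holds other genes linked to eIF2 phosphorylation. The medians are 1.26 for the regulators, 0.73 for the ATF4 targets and between -0.02 and 0.23 for the other lists.

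The authors' deposited table of fold changes gives far smaller log2 values for the same genes, from 0.11 for Trib3 to 0.53 for Cebpb among the members, and no row of that table exceeds 0.67 in size. Those values are compressed toward 0, and Trib3, with the highest log2 ratio of the members here (2.94), has the lowest of the 10 there. In the authors' deposited table Cebpb has a p-value of 0.0464 and the other members lie between 0.294 and 0.453. The lowest adjusted p-value in the authors' deposited table, over 30433 rows, is 0.999.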

How the data were processed

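RNA sequencing was done on 2 libraries, 1 per genotype. Per the submitters' processing notes, STAR version 2, DESeq and genome build mm9 were used. The program that counted the reads is not given in the sources used here, nor is its annotation. The authors deposited a signal per RefSeq transcript row, normalized counts, that is, read counts divided by 1 size factor per library, per the file headers and values. In both libraries 100% of values were whole multiples (relative tolerance 0.0001) of the value of 1 read, 1.71 normalized counts in the deficient and 0.583 in the wild-type library, so whole reads were recovered. Of 33018 rows, 1 with a shifted value was left out. The authors deposited a second table with log2 fold changes, a test score (not used) and p-values, quoted only as theirs.

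Rows were reduced to 1 per symbol, the one with the highest mean. Log2 ratios used a pseudocount of 10, calls a minimum mean of 50, and folds exact 95% Clopper-Pearson intervals on the recovered reads (SciPy 1.17.1). In a simulation of the comparison over 10518 genes, with Poisson counting error only, 95.1% of intervals covered the true fold. It checks how the intervals are computed and holds no variation between animals or libraries. A test such as edgeR's quasi-likelihood test was not used, since 1 library per genotype leaves no residual degrees of freedom. Per-kilobase levels used GENCODE transcript lengths, available for 98.9% of compared genes, and all members had a RefSeq promoter window. The deposited files carry no coordinates, and the only positions given are those of the promoter windows, on GRCm38.p6 and not on mm9.

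The members, lists, thresholds and motifs were chosen with earlier results of these data known. Named are the members, Dgkz, the genes called in a list (the 6 largest by absolute log2 ratio where more than 10 were called) and, outside this rule, Slc1a5, Sesn1, Sesn3, Trib1, Trib2, the other eIF2 kinase genes, Ppp1r15b, Pck2, Hspa5, Xbp1, Mars, Eif2s3x, Bbc3, Tnfrsf10b, Ero1l, Pmaip1, Bcl2, sex-linked genes and uncalled marker genes, chosen after their values were seen. The called B cell markers are given by their number, and single results for them are not reported here. Alternatives were pseudocounts of 1 and 50, no minimum or one of 200, equal totals, recentring, and other uses of transcript rows.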

Additional observations from a re-analysis of the deposited data

How the results depend on the processing

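No paired analysis was possible because each genotype has 1 library. For the same reason no library could be left out. The 6 members called higher stayed called with 0 called lower under all 8 alternatives fixed at the start. The median log2 ratio of all 10 members lay between 1.15 and 1.28. The alternatives of no minimum or one of 200 could not change a member's ratio or call, since every member's mean exceeded 200. Where the whole counting interval had to pass 2-fold, an alternative added after seeing the data, Cebpb was lost and 5 remained. Of 80 recomputed log2 ratios of single members 80 were above 0, and 3 moved by more than the half-width of their counting interval. Cebpg was lowest at 0.15. Many of the 80 could not differ from the main value. Those with other minimums repeat it, as do those with other uses of transcript rows for the 5 members with a single row. The lowest row also repeats the main value of Cebpb, whose rows are identical. Over all genes, where 137 were called higher and 136 lower, 89 were higher and 53 lower with the interval rule. The count of lower genes was also 67 with a pseudocount of 50, 71 with a minimum mean of 200 and 375 with no minimum, which adds genes with few reads. The lower depth of the deficient library, where the fewest reads of a member were 152 (Atf5), limits the precision of the folds of Atf5 and Cebpb most.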

Other observations

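Of 7 compared genes that CHOP is linked to in cell death, some of which it is known to raise and Bcl2 to lower, 1 was called higher and 1 lower, against 1.3% and 1.29% of all compared genes. Ppp1r15a was the higher one, and Bcl2l11, which encodes the death activator BIM, was the lower one, at 1027 normalized counts in the deficient library and 2729 in the wild-type library, 2.66-fold lower (2.44 to 2.90). Bbc3 and Tnfrsf10b, a death activator and a death receptor gene, had log2 ratios of 0.72 and 0.47. Ero1l, an ER oxidase gene, had 0.57, Pmaip1, another death activator gene, 0.31 and the survival gene Bcl2 -0.59, and these 5 genes were not called.

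Eif2s3x, the X-linked gene of the γ subunit of eIF2, was read at 4294 normalized counts in the deficient library and 2351 in the wild-type library, 1.83-fold higher (1.74 to 1.92). Its Y-linked copy Eif2s3y was at 0 in the deficient library and at 1911 in the wild-type library. The sum of both genes was 4294 normalized counts in the deficient library and 4262 in the wild-type library, 1.01-fold. The copies are close in sequence, and how reads were split between them was not tested.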
